A study of Rattus norvegicus with 12 samples.

Results

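The aldo-keto reductases of the Akr1 family were followed in rat liver RNA on 12 two-colour Agilent oligonucleotide arrays. The members were all non-control probes whose gene name in the scanner files, with the suffixes _predicted and _mapped dropped, starts with Akr1. They came to 13 probes for 12 genes, out of 41012 probes with 35561 gene names on the array. In the order of the branches they are Akr1b7, Akr1b8, Akr1b10 and Akr1b4, then Akr1c18, Akr1c21, Akr1c6, Akr1cl1 and Akr1c12, then Akr1d1 (2 probes), Akr1a1 and Akr1e1. Some names have changed since the array was designed. RefSeq now calls Akr1b4 Akr1b1, Akr1c6 Akr1c1, Akr1c18 Akr1c3, Akr1c21 Akr1c2, Akr1cl1 Akr1c15 and Akr1e1 Akr1e2, and the names of the files are kept here. The Akr1c12 probe has a name that RefSeq gives to more than 1 gene, so it is reported as filed.

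All animals were Fischer 344 rats of 12 weeks. The 6 RNAs were liver pools of intact males, intact females, hypophysectomised (hypox) males, hypox females, hypox males given growth hormone (GH) by 1 injection, and hypox males given 2 injections. Intact and hypox RNAs were pools of 3 to 4 livers. The 1-injection RNA was 1 pool of 4 livers taken 30, 60 or 90 min after GH, so an early and a later response are averaged in it. The 2-injection RNA was 1 pool of 5 livers from rats injected 3 or 4 h apart. The RNAs were set against each other in 6 comparisons of 2 arrays with the dyes swapped, and the log2 ratios below divide the RNA named first by the other. Different pools were used on the arrays of a dye swap, except that each GH pool was on both of its arrays, so the spread of the GH comparisons leaves out the variation between GH-treated animals. Hypox rats lack all pituitary hormones, not only GH, and no female received GH.

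The Akr1 enzymes reduce aldehydes and ketones with NADPH. The Akr1b branch holds aldose reductase and its relatives, the Akr1c branch holds hydroxysteroid dehydrogenases that activate or inactivate steroid hormones, and Akr1d1 reduces the steroid ring on the way to bile acids and in the clearance of steroid hormones. Male rats release GH in pulses and female rats more evenly, and this pattern, read in hepatocytes largely through the transcription factor STAT5, sets much of the sex difference in liver steroid metabolism. The Akr1b and Akr1c genes arose by duplication and are close in sequence. A probe of one may take up RNA of another, so the assignment of a signal to 1 gene is uncertain, and the probe sequences were not used here.

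The promoters of 4 members are printed because these 4 had the largest differences between the RNAs. RefSeq promoters of build GRCr8, which run from 250 bases before to 50 after the annotated start, were searched on both strands for 4 motifs: the STAT5 motif TTCNNNGAA, the Onecut motif ATCAAT, the antioxidant response element TGACNNNGC and the TATA box TATAAA. Capitals mark a match. Akr1b7 (chr4:64043720-64044019, + strand) and Akr1b8 (chr4:63964171-63964470, + strand) held none of the 4 motifs in this window.
Akr1b7: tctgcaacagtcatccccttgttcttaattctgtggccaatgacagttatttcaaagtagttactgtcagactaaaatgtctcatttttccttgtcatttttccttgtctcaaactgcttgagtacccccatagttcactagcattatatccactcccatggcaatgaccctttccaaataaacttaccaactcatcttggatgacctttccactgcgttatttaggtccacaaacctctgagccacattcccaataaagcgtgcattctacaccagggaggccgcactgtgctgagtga
Akr1b8: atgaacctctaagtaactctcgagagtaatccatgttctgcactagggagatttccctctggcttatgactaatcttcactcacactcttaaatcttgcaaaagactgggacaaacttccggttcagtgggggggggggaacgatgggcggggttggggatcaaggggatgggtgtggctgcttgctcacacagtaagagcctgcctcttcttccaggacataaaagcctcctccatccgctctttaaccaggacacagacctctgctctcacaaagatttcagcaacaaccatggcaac
Akr1c18 (Akr1c3 in RefSeq, chr17:71020634-71020933, + strand) held 1 TATA box match, 150 bases before the start. Akr1c21 (Akr1c2 in RefSeq, chr17:70717831-70718130, - strand) held 2 STAT5 matches, 213 and 156 bases before the start.
Akr1c3: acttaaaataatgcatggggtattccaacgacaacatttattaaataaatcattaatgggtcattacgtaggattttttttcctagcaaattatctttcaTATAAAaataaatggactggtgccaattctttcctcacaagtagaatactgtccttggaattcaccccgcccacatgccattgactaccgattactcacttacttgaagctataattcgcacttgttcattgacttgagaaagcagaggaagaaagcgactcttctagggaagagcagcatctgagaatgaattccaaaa
Akr1c2: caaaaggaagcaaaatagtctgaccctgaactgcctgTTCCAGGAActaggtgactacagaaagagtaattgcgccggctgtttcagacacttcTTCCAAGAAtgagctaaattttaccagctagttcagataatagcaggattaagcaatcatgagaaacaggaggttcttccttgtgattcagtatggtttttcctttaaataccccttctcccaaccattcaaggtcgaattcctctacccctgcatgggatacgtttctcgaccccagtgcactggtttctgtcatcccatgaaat

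Of 27457 rat promoters of the same length, 1 a gene, 8.68% held the STAT5 motif, 7.87% the Onecut motif, 12.2% the antioxidant response element and 14.3% the TATA box. Of the 14 promoters that RefSeq gives to Akr1 genes, 2 held the STAT5 motif, Akr1c2 and Akr1c12l1. None held the Onecut motif. A match is a description of these letters and not of a bound site, and a window without a match says nothing about the factor.

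All 8 hepatocyte markers were well above background on all 24 channels (12 arrays in 2 colours), as were 11 of the 13 Akr1 probes. Akr1b7 was well above background on 16 channels and Akr1b10 on 4. Of the markers of the adrenal cortex, where Akr1b7 is also strong in mouse, Cyp11a1 and Mc2r were well above background on 0 channels, Cyp11b1 and Cyp11b2 on 2 each, Cyp21a1 on 14 and Star on 24. Star rose slightly in hypox females (0.21 ± 0.06, adjusted p = 0.0287). The summed level of the 6 adrenal markers lay between 512 and 541 in intact females and between 538 and 568 in intact males. RNA came from whole liver, so fewer cells of a type and less RNA per cell cannot be told apart.

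The sexes differed at 9 of 13 Akr1 probes in intact rats, 4 higher and 5 lower in males, against 15.5% of all probes tested (8.07% higher and 7.42% lower). Hypophysectomy of males changed 9 of 11 tested Akr1 probes, 5 upward and 4 downward (37.5% of all probes, 19% upward and 18.5% downward). Hypophysectomy of females changed 9 of 13, 4 upward and 5 downward (36.3% of all probes, 17.9% upward and 18.5% downward). Between hypox males and hypox females 1 of 12 differed, Akr1c18, higher in males (0.949% of all probes, 0.53% higher and 0.419% lower). One GH injection changed 7 of 12, 4 upward and 3 downward (14.3% of all probes, 7.49% upward and 6.79% downward). After 2 injections 6 of 12 changed, 3 each way (30.8% of all probes, 15% upward and 15.8% downward). The change after hypophysectomy depended on sex at 7 of 13, 4 with a higher and 3 with a lower value in males, among them Akr1b7 and Akr1b10, whose male effect lay below background (12.9% of all probes, 6.08% and 6.85% in these directions). The 2 GH schedules differed at 1 of 12 (9.02% of all probes, 4.87% higher and 4.16% lower after 2 injections). These calls are at an adjusted p under 0.05 in limma. Without array 2 of the comparison between the intact sexes, 5 probes were called there. Without either array of the hypox sexes 0 were called, with 1 array of the single injection left out 2 either way, and of the double injection 2 without array 1 and 3 without array 2.

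**Figure D1:**
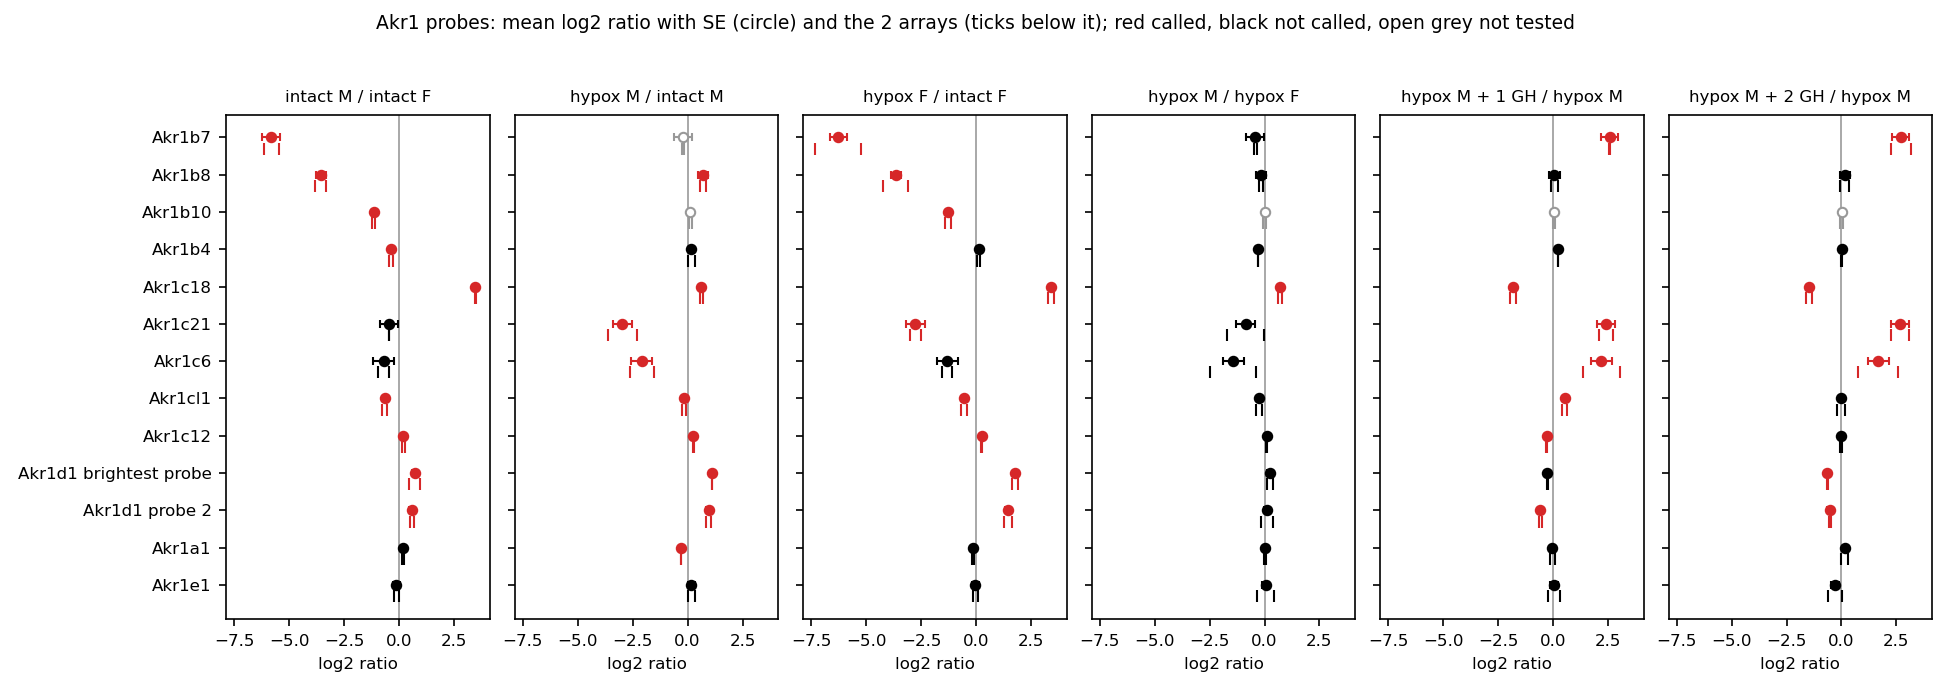
Log2 ratio (horizontal axis) of the 13 Akr1 probes in the 6 comparisons. Circles are means with SE, ticks below them are the 2 arrays, red marks probes called at an adjusted p under 0.05, black probes not called and open grey probes not tested. Akr1b7, Akr1b8 and Akr1c18 have the widest sex difference, from -5.82 to 3.47, and Akr1c21 moves by -2.97 and -2.76 after hypophysectomy and by 2.41 and 2.67 after GH.

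Akr1b7, first described as an androgen-dependent secretory protein of the mouse vas deferens and an aldehyde reductase of steroid-producing tissues, was the most female-biased member. Its normalized level (log2, comparable between RNAs for 1 probe only) was 17.34, 16.87, 16.93 and 17.49 on the 4 arrays with intact female RNA. In hypox male RNA the level ran from 6.12 to 6.77 on 8 arrays with a median of 6.30, and 6 of the 8 were not well above background. All intact female values lay far above all others. The hypox male values overlapped those of intact males and hypox females on the arrays without intact female RNA. The log2 ratio of intact males to intact females was -5.48 and -6.17 on its arrays, with a fitted value of -5.82 ± 0.40 (standard error, SE, from the fit, 2 arrays, adjusted p = 4.28e-05 in limma). Hypox females lay below intact females by log2 ratios of -7.32 and -5.23, fitted at -6.27 ± 0.40.

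Those ratios did not carry over to other arrays. The Akr1b7 level of intact male RNA was 11.86 and 10.71 beside intact female RNA, but 6.43 and 6.28 beside hypox male RNA, where it was not well above background. The level of hypox female RNA was 9.61 and 12.27 beside intact female RNA, and 6.73 and 6.74 beside hypox male RNA. The same RNA thus read 4.92 (intact male) and 4.21 (hypox female) log2 units higher when intact female RNA shared the array. Before normalization the intact male channel, mean minus local background, was 5044 (Alexa 647) and 899 (Alexa 555) beside intact females and 24 and 9 beside hypox males. The hypox female channel was 7171 (Alexa 647) and 580 (Alexa 555) beside intact females and 47 and 35 beside hypox males, against 129608 to 216648 for intact female RNA itself.

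Akr1b8, an aldehyde reductase related to aldose reductase, showed the same in smaller size. Intact male RNA had an Akr1b8 level of 11.99 and 11.36 beside intact females and 8.50 and 8.75 beside hypox males, a mean difference of 3.05. Hypox female RNA had 10.86 and 12.26 beside intact females and 9.40 and 9.52 beside hypox males, a mean difference of 2.10. Intact female RNA had 15.33, 15.17, 15.09 and 15.35. The fitted ratios were -3.57 ± 0.23 for intact males against intact females (arrays -3.33 and -3.81) and -3.66 ± 0.23 for hypox against intact females (arrays -4.23 and -3.09). The order, intact females above all other RNAs, held on every array and for both probes. The size of the gap depended on which arrays were compared.

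Such a rise was rare over all probes and common where intact female RNA lay far above the other RNA. Akr1b7 and Akr1b8 are themselves among the probes counted here. Over 25417 probes where intact female RNA lay by under 4 log2 units above intact male RNA, the intact male level moved by a median of -0.01 between these partners, and 3 probes rose by over 1. Among 24 probes where it lay 4 or more above, the median was 1.07 and 13 rose by over 1, with a range of -0.73 to 5.53. For hypox female RNA the median was -0.01 over 23673 probes and 1.15 over 46, of which 28 rose by over 1. The low level enters both the selection and the rise, so part of this contrast is built in. The cause was not tested. The loop of 4 ratios (intact and hypox, male and female), which should sum to 0, gave 0.67 for Akr1b7 and 0.96 for Akr1b8, and 0.24 or less in size for the other 11 probes. A rise that intact male and hypox female RNA share beside intact females cancels in this sum. The sums therefore do not give the size of the partner difference, and a small sum does not show that there was none.

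**Figure D2:**
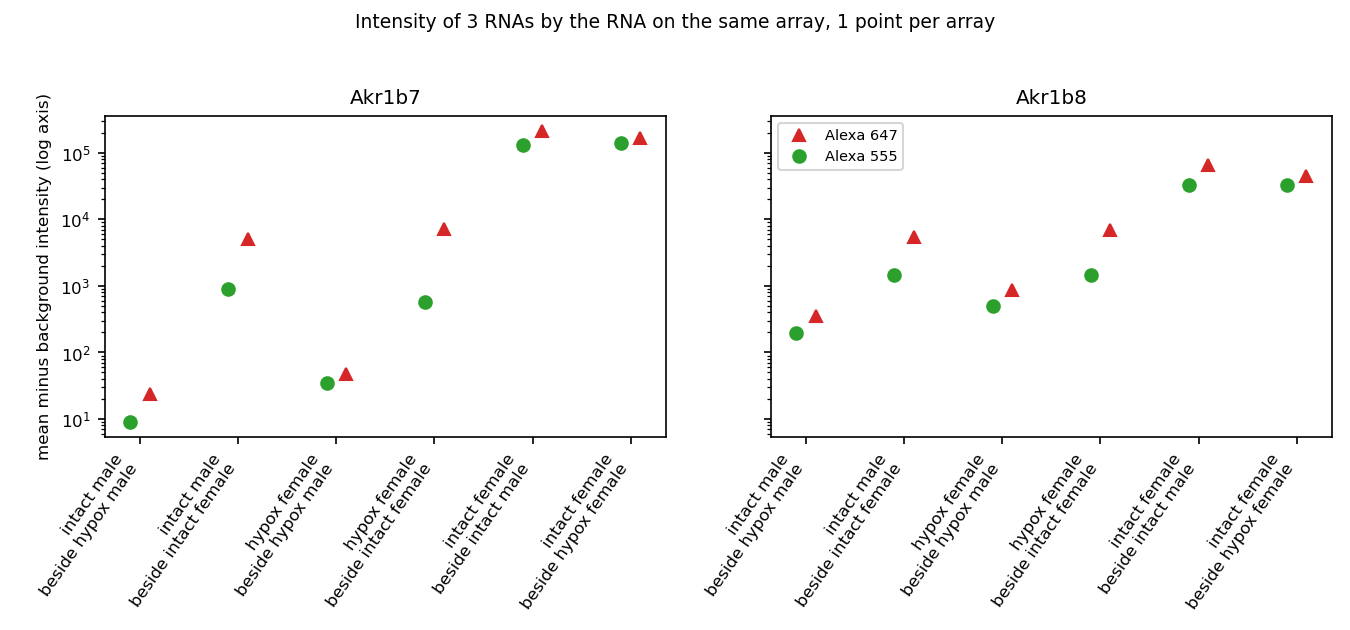
Intensity (mean minus local background, log axis) of intact male, hypox female and intact female RNA at the Akr1b7 and Akr1b8 probes, split by the RNA on the same array. Each point is 1 array, triangles Alexa 647 and circles Alexa 555. Intact male RNA at Akr1b7 goes from 9 and 24 beside hypox males to 899 and 5044 beside intact females.

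In males, Akr1b7 was not well above background in either RNA of the hypophysectomy comparison and was not tested. Akr1b8 had a log2 ratio of 0.70 ± 0.23 (arrays 0.59 and 0.82, adjusted p = 0.0463), which passed the threshold narrowly and missed it without either array (0.74, adjusted p = 0.167, without array 1 and 0.66, adjusted p = 0.181, without array 2). The call was also lost with the replicate block (adjusted p = 0.0706), with no dye coefficient (0.0517) and with no filter on background (0.0592). The effect of hypophysectomy, male minus female, differed by 3.88 ± 0.23 log2 units for Akr1b8 (adjusted p = 3.06e-05). The 2 direct estimates averaged in it differed by the loop sum of 0.96. Each holds a ratio against intact females, so this size also depends on the arrays compared. For Akr1b7 no size of that difference can be given, since the male effect was not measured. Between hypox males and hypox females the ratios were -0.42 ± 0.40 for Akr1b7 (adjusted p = 0.707), with hypox males not well above background, and -0.17 ± 0.23 for Akr1b8 (adjusted p = 0.812). With the deposited processed signals the Akr1b7 ratio was -2.99 (adjusted p = 0.0507), so its size in the hypox sexes is not settled by these arrays.

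GH raised Akr1b7, and no change was called at its neighbour Akr1b8. The Akr1b7 level was 8.69 and 8.94 in the 1-injection pool against 6.12 and 6.36 in the hypox male RNA of the same arrays, and 9.82 and 9.01 in the 2-injection pool against 6.67 and 6.77. Every GH value lay above every hypox male value and all lay far below the intact females. After 1 injection the log2 ratio was 2.57 ± 0.40 (arrays 2.57 and 2.58, adjusted p = 0.00505). Since hypox males were not well above background on those arrays, this is at least a 5.73-fold rise. After 2 injections it was 2.69 ± 0.40 (arrays 3.15 and 2.24, adjusted p = 0.0013). These sizes depend on the processing of the dim channel. With the deposited processed signals they were 5.58 and 5.09, and before normalization the 2-injection channel was 621 and 954 against 31 and 21 for hypox males. Both calls were lost with median centring (adjusted p = 0.608 and 0.198). With 1 array left out the single-injection value was 2.39 (adjusted p = 0.118, without array 1) or 2.75 (adjusted p = 0.0874, without array 2). Akr1b8 had 0.06 ± 0.23 after 1 injection and 0.15 ± 0.23 after 2, with levels of 9.31 and 9.40, then 9.40 and 9.45, all inside the hypox male range of 9.06 to 9.57. Neither was called, and a p above the threshold does not show that Akr1b8 stayed the same.

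The other 2 Akr1b genes had smaller ratios. Akr1b10 was well above background in intact female RNA alone, with levels of 7.58, 7.72, 7.72 and 7.43, and on no channel of the other 5 RNAs. It was at least 2.24-fold higher in intact females than in intact males and at least 2.40-fold higher than in hypox females. Its dim channels also read higher beside intact females, though not well above background. Before normalization intact male RNA had 26 and 12 there and 3 and 3 beside hypox males. Hypox female RNA had 11 and 24 beside intact females and 5 and 6 beside hypox males. Akr1b10, Akr1b8 and Akr1b7 promoters lie on chromosome 4, and all 3 genes were lower in the other RNAs than in intact females. Akr1b4, aldose reductase, which turns glucose into sorbitol, was lower in intact males by -0.35 ± 0.08 (adjusted p = 0.0172, but 0.126 and 0.259 with array 1 or array 2 left out). It was not called in the other 5 comparisons, except that without array 1 of the hypox males its ratio there was 0.31 (adjusted p = 0.0494).

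**Figure D3:**
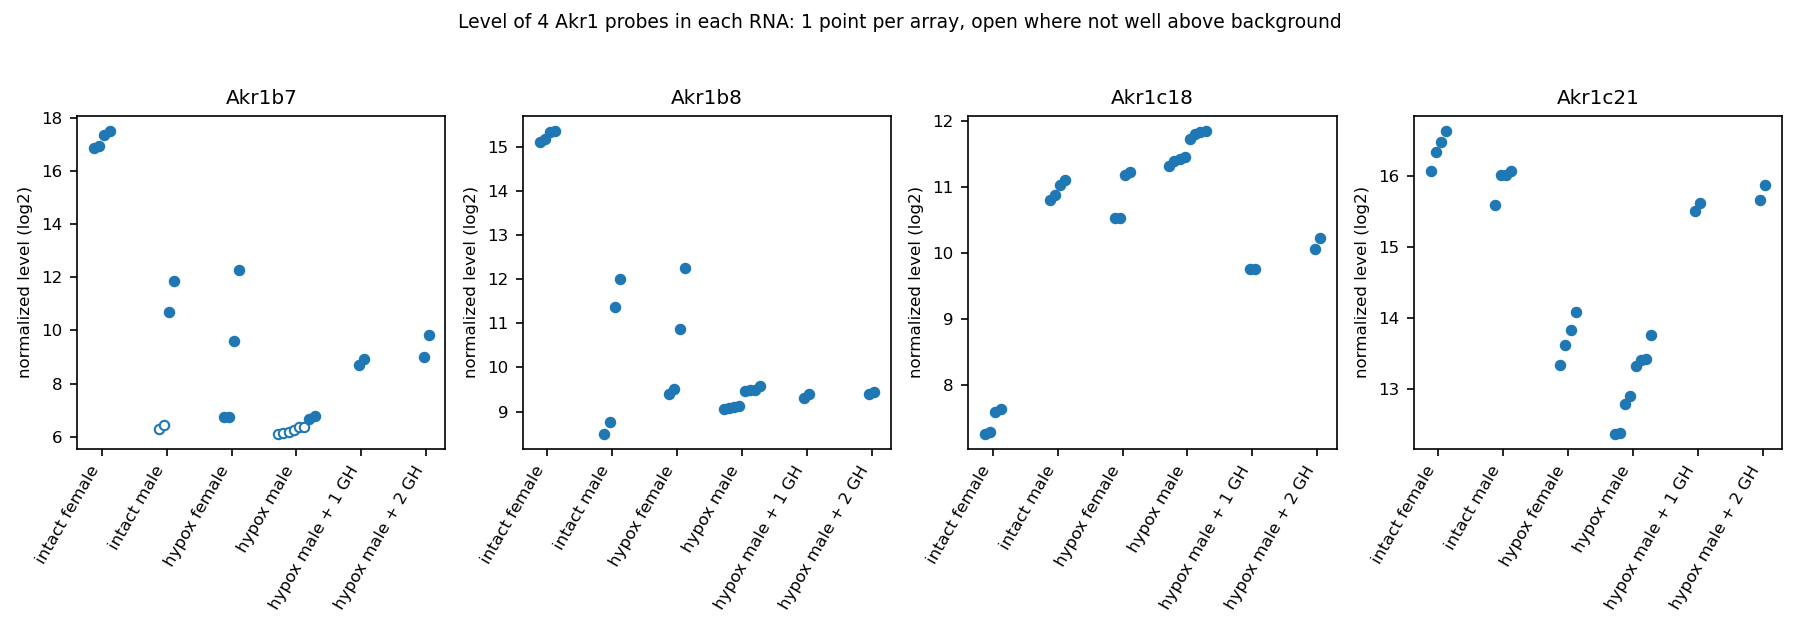
Normalized log2 level of 4 Akr1 probes in the 6 RNAs, 1 point per array, open where not well above background. Levels of different probes are on different scales and are not compared. Intact females are highest at Akr1b7 (16.87 to 17.49) and Akr1b8 and lowest at Akr1c18 (7.26 to 7.63), and all hypox RNAs without GH are low at Akr1c21.

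Akr1c18, in mouse the hydroxysteroid dehydrogenase that inactivates progesterone, ran opposite to Akr1b7. Its level was 7.29, 7.58, 7.26 and 7.63 in intact females and 10.80, 11.02, 10.88 and 11.10 in intact males. Hypox females had 10.53, 11.18, 10.53 and 11.22, and hypox males 11.32 to 11.84 on 8 arrays with a median of 11.59. Intact females lay below every other RNA, hypox females overlapped intact males, and hypox males lay above both. Here the levels of intact male and hypox female RNA differed little with the partner on the array, and the loop sum was -0.01. Intact female RNA, the dim one at this probe, was set only against these brighter RNAs. Whether its level depends on the partner could therefore not be seen.

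The Akr1c18 log2 ratio of intact males to intact females was 3.47 ± 0.10 (arrays 3.51 and 3.44, adjusted p = 4.33e-07), and that of hypox to intact females 3.41 ± 0.10 (arrays 3.27 and 3.55). In males hypophysectomy gave 0.62 ± 0.10 (arrays 0.55 and 0.70, adjusted p = 0.00252), which left a sex dependence of -2.78 ± 0.10 (adjusted p = 2.06e-06). The RNA thus rose after hypophysectomy in both sexes, far more in females. It was the member called between the hypox sexes, at 0.70 ± 0.10 (arrays 0.78 and 0.61, adjusted p = 0.0303), and lost that call without array 1 (0.60, adjusted p = 0.263) or array 2 (0.79, adjusted p = 0.175). With the replicate number as a block its adjusted p was 0.0559.

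GH lowered Akr1c18. The 1-injection pool had levels of 9.76 and 9.76 and the 2-injection pool 10.05 and 10.22, all below every hypox male array and still above the intact females. The log2 ratios were -1.83 ± 0.10 after 1 injection (arrays -1.69 and -1.97, adjusted p = 6.21e-05) and -1.48 ± 0.10 after 2 (arrays -1.34 and -1.62, adjusted p = 3.20e-05). The 2 responses differed by 0.35 ± 0.15, which was not called (adjusted p = 0.214).

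Akr1c21, in mouse a hydroxysteroid dehydrogenase, was high in intact rats of both sexes and low without the pituitary. Its level was 16.02, 15.59, 16.01 and 16.07 in intact males and 16.47, 16.07, 16.63 and 16.34 in intact females. Hypox females had 14.08, 13.33, 13.62 and 13.83, and hypox males 12.37 to 13.76 with a median of 13.10. Intact and hypox RNAs did not overlap. Hypophysectomy gave -2.97 ± 0.42 in males (arrays -3.63 and -2.31, adjusted p = 0.00114) and -2.76 ± 0.42 in females (arrays -3.02 and -2.51, adjusted p = 0.00166, but 0.0534 without array 1). No dependence on sex was called (-0.30 ± 0.42, adjusted p = 0.72), and intact males and females had a ratio of -0.47 ± 0.42 that was not called.

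After GH the normalized Akr1c21 level was near that of intact males, although these RNAs shared no array or slide. The 1-injection pool had 15.62 and 15.50 and the 2-injection pool 15.87 and 15.66, above every hypox male value and overlapping intact males. The log2 ratios were 2.41 ± 0.42 after 1 injection (arrays 2.73 and 2.09, adjusted p = 0.00834) and 2.67 ± 0.42 after 2 (arrays 3.09 and 2.26, adjusted p = 0.00179). With 1 array left out the adjusted p of the single injection was 0.169 without array 1 and 0.107 without array 2, and that of the double injection 0.0594 without array 1. The RefSeq promoter of Akr1c21, printed above, has 2 STAT5 matches, and that of Akr1b7, which also rose after GH, has none. The part of these matches in the responses was not tested.

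Akr1c6, in mouse a hydroxysteroid dehydrogenase acting on androgens and estrogens, moved the same way as Akr1c21 with more spread. It fell in hypox males by -2.09 ± 0.48 (arrays -2.64 and -1.53, adjusted p = 0.0104, but -0.88 with an adjusted p of 0.167 without array 1). Hypox females had -1.32 ± 0.48, which was not called (arrays -1.08 and -1.55, adjusted p = 0.0624), but was called with the slide as a fixed block (adjusted p = 0.0404) and with its own arrays alone (1.02e-04). It rose by 2.20 ± 0.48 after 1 injection (arrays 3.03 and 1.36, adjusted p = 0.0195) and by 1.67 ± 0.48 after 2 (arrays 2.58 and 0.77, adjusted p = 0.0291). Both GH calls were lost with either array left out, where the values ran from 1.13 to 2.66 (without array 1 they were 1.73 and 1.13).

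The spread of Akr1c6 came with the number of the array. In hypox male RNA its level was 11.76 to 12.09 on the 4 arrays numbered 1 and 13.23 to 13.58 on the 4 numbered 2, whichever RNA shared the array. Akr1c21 had 12.37 to 12.89 and 13.32 to 13.76, Akr1b8 9.06 to 9.13 and 9.46 to 9.57, and Akr1c18 11.32 to 11.45 and 11.73 to 11.84. At these 4 probes the arrays numbered 1 and 2 did not overlap. The same held at Akr1cl1 (11.91 to 12.10 and 12.28 to 12.31), Akr1e1 (13.28 to 13.48 and 13.73 to 14.06) and Akr1b4 (8.78 to 9.06 and 9.08 to 9.30). The second Akr1d1 probe was split in the opposite direction (15.40 to 15.57 and 15.30 to 15.33). At the remaining probes the ranges overlapped. Each number holds both dyes, and 2 hypox male pools were used, but the sources used here do not tie a pool to an array. Outside the GH comparisons the arrays of a number also shared a slide, while all GH arrays were on the same slide. The part of the pools and slides in these differences was not tested.

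**Figure D4:**
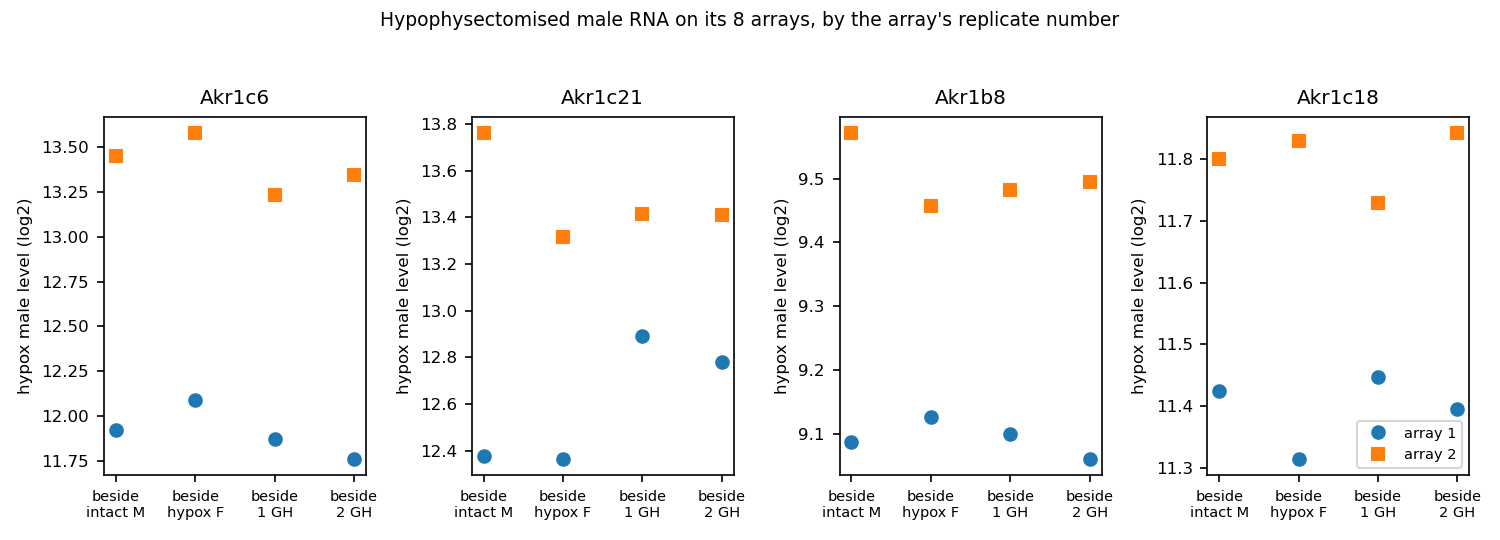
Normalized log2 level of hypox male RNA at 4 Akr1 probes on its 8 arrays, by the RNA on the same array (horizontal axis), with the number of the array as the symbol. Each panel has its own scale. Arrays numbered 2 lie above arrays numbered 1 in every panel, by the most at Akr1c6 (means 13.40 and 11.91).

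Among the remaining Akr1c probes the changes were small. Akr1cl1, which the sources used here give no role, was lower in intact males by -0.65 ± 0.05 (arrays -0.76 and -0.54, adjusted p = 8.24e-05). It fell by -0.56 ± 0.05 in hypox females and by -0.16 ± 0.05 in hypox males (adjusted p = 0.0354, but 0.294 and 0.0841 with array 1 or array 2 left out), a sex dependence of 0.39 ± 0.05. It was the member called between the GH schedules. It rose by 0.53 ± 0.05 after 1 injection, with levels of 12.74 and 12.74, and had -0.04 ± 0.05 after 2, with levels of 12.05 and 12.07, a difference of -0.57 ± 0.07 (adjusted p = 0.00345). Akr1c12 was higher in intact males by 0.20 ± 0.05, rose by 0.27 ± 0.05 in hypox males and 0.25 ± 0.05 in hypox females, and fell by 0.29 on the log2 scale after 1 injection. The sex difference of Akr1c12 was lost without array 1 (0.15, adjusted p = 0.437) or array 2 (0.24, adjusted p = 0.174) and was -0.05 with median centring. Its other calls were also lost with 1 array left out, at 0.28 (adjusted p = 0.0509, without array 1) in hypox males, 0.27 and 0.23 (adjusted p = 0.0744 and 0.102, without array 1 and array 2) in hypox females, and -0.33 and -0.26 (adjusted p = 0.108 and 0.178) after 1 injection.

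A further 5 probes of the same family carry other names in the files and fall outside the members, but RefSeq names them Akr1c. Akr1c14, a hydroxysteroid dehydrogenase of rat liver, was lower in intact males (-0.99 ± 0.16, adjusted p = 0.0043), fell in hypox males (-1.23 ± 0.16) and hypox females (-1.93 ± 0.16), and rose after 1 injection (0.82 ± 0.16, adjusted p = 0.0123), while 2 injections gave 0.40 ± 0.16, which was not called (adjusted p = 0.0996). Akr1c12l1, which has the second STAT5 promoter match, went the opposite way. It was higher in intact males by 0.86 ± 0.09, rose in hypox females by 1.06 ± 0.09 and fell by 0.48 on the log2 scale after 2 injections. The probe filed as LOC364773, Akr1c12 in RefSeq, was also higher in intact males (1.08 ± 0.15) and rose in hypox females (1.12 ± 0.15). It fell after 2 injections (-0.56 ± 0.15, adjusted p = 0.0253). The probe filed as Akr1c12 had 0.20, 0.25 and -0.01 in these comparisons, so the 2 probes under this name differ in size. Akr1c19 rose in hypox males (0.60 ± 0.10) and after 2 injections (0.60 ± 0.10), and AKR1C3l1 was called in none of the 6 comparisons. The STAT5 motif therefore stood in the promoter of 1 gene that rose after GH and of 1 that fell.

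Akr1d1, the steroid reductase of bile acid synthesis, was lower in intact than in hypox rats of both sexes, and lower in intact females than in intact males. On its brighter probe the level was 14.63, 14.57, 14.45 and 14.23 in intact females and 15.10, 15.53, 15.06 and 14.71 in intact males. Hypox females had 15.70, 15.93, 16.10 and 16.15, and hypox males 15.84 to 16.20 with a median of 15.98. Neither intact RNA overlapped a hypox RNA, while the hypox sexes overlapped. The log2 ratio of intact males to females was 0.72 ± 0.12 (arrays 0.47 and 0.96, adjusted p = 0.00457, but 0.0722 without array 2). Hypophysectomy raised it by 1.13 ± 0.12 in males (arrays 1.13 and 1.13) and 1.79 ± 0.12 in females (arrays 1.65 and 1.92), a sex dependence of -0.56 ± 0.12 (adjusted p = 0.0167).

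Akr1d1 was lower after 2 GH injections. After 2 injections the log2 ratio was -0.64 ± 0.12 (arrays -0.65 and -0.63, adjusted p = 0.00361, but 0.0657 and 0.0596 with array 1 or array 2 left out). After 1 injection it was -0.25 ± 0.12, which was not called (adjusted p = 0.195). The second Akr1d1 probe had -0.58 ± 0.13 after 1 injection, which was called (adjusted p = 0.0196), and -0.51 ± 0.13 after 2 (adjusted p = 0.0157). Without 1 array its calls were lost, at -0.43 and -0.73 after 1 injection (adjusted p = 0.311 and 0.117, without array 1 and array 2) and -0.39 and -0.63 after 2 (adjusted p = 0.264 and 0.0702). The probes had the same direction in all 6 comparisons and differed in the call of the single injection.

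Akr1a1, aldehyde reductase, and Akr1e1, in mouse a reductase of anhydrofructose, had small ratios throughout. Akr1a1 fell in hypox males by -0.29 ± 0.07 (adjusted p = 0.0106, but 0.177 without array 1) and was called in no other comparison, with ratios of -0.13 to 0.19. Akr1e1 was called in none of the 6, with ratios of -0.29 to 0.16, except that without array 1 of the hypox males its ratio there was 0.57 (adjusted p = 0.0326).

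**Figure D5:**
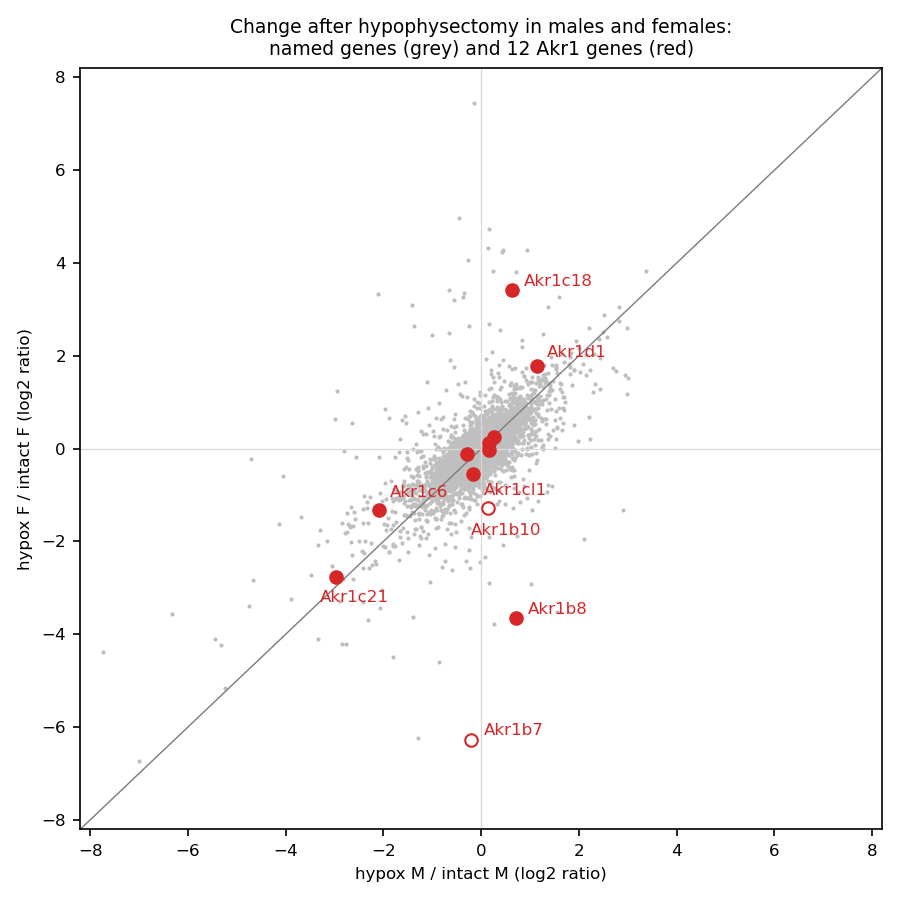
Log2 ratio after hypophysectomy in males (horizontal axis) and females (vertical axis), with named genes as grey points and 12 Akr1 genes in red, open where the male comparison was not tested. The line marks equal change. Akr1c21 and Akr1c6 lie near it, Akr1b7 and Akr1b8 far below it and Akr1c18 far above it, at 0.62 in males and 3.41 in females.

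The genes whose 6 ratios lay closest to those of the Akr1b pair were sought among named genes. For Akr1b7 the nearest of 5918 was the steroid sulfate hydroxylase Cyp2c12, with a root mean square difference of 0.82 and a Pearson r of 0.99 over 6 comparisons, followed by Elovl6 (1.77), Ifi47 (1.81), Onecut1 (1.94) and Ugt1a9-ps (1.95). With the deposited processed signals Cyp2c12 was at rank 4 (2.33) and the nearest gene was Sult2a1 (1.89). One of the 6 Akr1b7 ratios, hypox against intact males, was not tested. Cyp2c12 had 0.95 after 1 injection and 2.70 after 2, where Akr1b7 had 2.57 and 2.69. For Akr1b8 the genes near it among 5912 included Scd2 (0.50), Prom1 (0.76), Lifr (0.83) and S100g (0.90). These 6 ratios share RNAs and arrays, and the likeness is a description of them.

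Related pathways moved as follows, counting genes tested over lists chosen with results of these data known. Of 22 steroid and bile acid enzymes, 6 were higher and 4 lower in intact males, led by Cyp3a2 (7.59 ± 0.20) and Cyp2c12 (-5.43 ± 0.40), with a median log2 ratio of 0.17 against -0.00361 over all named genes. In hypox males 4 rose and 10 fell, the sulfotransferase Sult2a1 by -3.33 ± 0.36 and the reductase Srd5a1 by -2.08 ± 0.19. In hypox females 8 rose and 6 fell. Sult2a1 and Srd5a1 rose after 1 injection, by 3.1 ± 0.36 and 2.28 ± 0.19, among 3 that rose and 5 that fell. After 2 injections 5 rose and 7 fell. Between the hypox sexes Hsd3b5 (1.75 ± 0.20) was higher and Sult2a1 (-3.65 ± 0.36) lower in males. Of all named genes 17.6% were called between the intact sexes, 40.6% in hypox males and 39.0% in hypox females. After 1 injection the share was 16.3% and after 2 it was 36.8%. The hypox sexes differed at 9.09% of the tested list, against 1.02% of all named genes.

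Carbonyl metabolism was covered by a list of enzymes that make or clear aldehydes and ketones outside the Akr family. After 2 injections 17 of 26 fell and 1 rose, with a median of -0.40 against -0.01 over all named genes, the alcohol dehydrogenases Adh7 (-1.26 ± 0.16) and Adh1 (-1.03 ± 0.19) by the most. After 1 injection 2 of 25 rose and 6 fell. In hypox males 8 rose and 6 fell, with the retinal dehydrogenase Aldh1a1 at 2.95 ± 0.17 and Adh1 at 1.99 ± 0.19. In hypox females 6 rose and 5 fell, and 4 were higher and 6 lower in intact males. Of this list 40% were called between the intact sexes, 56% in hypox males and 44% in hypox females. After 1 injection 32% were called and after 2 injections 69.2%. The shares over all named genes in the same order were 17.6%, 40.6%, 39%, 16.3% and 36.8%. The aldehyde reductases Akr7a2 and Akr7a3, of another branch of the superfamily, fell after 2 injections by -0.79 ± 0.07 and -0.77 ± 0.09, and 3 of the 4 tested genes of that list fell there, as did 2 of 4 after 1 injection. Between the intact sexes Akr7a3 (0.43 ± 0.09) was the 1 of 3 called, and in hypox females Akr7a2 (-0.20 ± 0.07). Each single call was 33.3% of that list, against 17.6% and 39% of all named genes.

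Targets of Nrf2, the factor that induces several Akr genes under oxidative stress, went both ways. Of 20 tested, 4 were higher and 7 lower in intact males, with the transporter Abcc3 (-1.71 ± 0.07) and Gsta3 (-1.43 ± 0.20). In hypox males 3 rose and 9 fell and in hypox females 6 rose and 8 fell, with malic enzyme Me1 at -2.63 ± 0.12 and -2.82 ± 0.12. After 1 injection 6 rose and 5 fell, and after 2 injections 5 each way. Called were 55% between the intact sexes, 60% in hypox males, 70% in hypox females, 55% after 1 injection and 50% after 2. Over all named genes the shares were 17.6%, 40.6%, 39%, 16.3% and 36.8%. Between the hypox sexes 0 of 25 carbonyl genes and 4 of 20 Nrf2 targets differed, the latter all lower in males, against 1.02% of all named genes.

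Markers of other cell types moved beside these results. In intact males 4 of 6 macrophage markers were lower and 1 higher, with a summed level of 51206 to 54189 against 58846 to 63626 in intact females. Bile duct markers rose for 3 of 5 in hypox males and 3 of 5 in hypox females (40.6% and 39.0% of all named genes were called), from a summed level of 2263 to 2859 in the intact RNAs to 6479 to 9743 in the hypox RNAs. Endothelial markers rose for 4 of 6 and 4 of 5, and of 5 stellate cell markers 1 rose and 1 fell in hypox males and 2 fell in hypox females. Between the hypox sexes 3 of 6 macrophage and both tested erythroid markers were lower in males. After 1 injection 5 of 6 macrophage markers rose and 1 fell, with a summed level of 67130 to 68609. Both tested erythroid markers fell after hypophysectomy in each sex and rose after GH. Of all named genes 17.6% were called between the intact sexes, 1.02% between the hypox sexes, 16.3% after 1 injection and 36.8% after 2. The pancreatic marker Cpa1 had -3.93 ± 0.80 between intact males and females and -4.15 ± 0.80 in hypox females, the direction of Akr1b7. Of 8 pancreas markers tested between the intact sexes 2 were higher and 1 lower in males, with a median of -0.05, and of 9 tested in hypox females 1 rose and 3 fell. The summed level of the 10 pancreas markers was 67339 to 76780 in intact males and 65339 to 74479 in intact females. The part of these cells in the Akr1 results was not tested.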

How the data were processed

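Liver RNA was measured on 12 Agilent arrays of 45018 spots. Per the file headers, the scanner software (Agilent Feature Extraction) gave each deposited intensity: a mean and a background per colour, and a processed intensity. It also gave the deposited log10 ratio of the red to the green signal, and deposited flags of 0 or 1 for spots above background, saturated or outlying. No spot was saturated. The deposited value table matched the log2 ratio of channel 2 to channel 1 of the processed signals. Its column medians ran from -0.13 to 0.15, and the sources used here do not say whether it was centred further. Between 58.4% and 71.1% of probes were well above background per colour, and the small number of arrays limits precision.

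Mean intensities were corrected with normexp (offset 50) and normalized by loess in limma 3.58.1 (R 4.3.3), with 1639 control spots and outlying spots at weight 0. Each ratio was oriented by the labelled dyes. For 1 array given GH once, a label omits GH and the title was followed. Levels came from loess followed by Aquantile scaling. The GH arrays were on a slide of their own, so levels of GH pools and intact RNAs are compared across slides. A linear model over 12 arrays had 6 comparison coefficients and 1 dye coefficient (residual degrees of freedom 5, prior 3.08), so the comparisons share 1 estimate of the spread. A probe entered a test where 1 RNA or both passed the background flag on each array of the comparison (29008 probes overall), and p-values were adjusted by Benjamini-Hochberg. A bound written "at least" sets the brighter RNA against the higher of the dim probe's own signal and the lowest signal well above background. For the sex dependence, the 2 direct estimates in the design were averaged.

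All 12 member genes are named. Neighbours are the 5 named genes with the smallest root mean square difference over 6 ratios, and up to 2 called genes are named per list and comparison, apart from marker genes. One neighbour is not reported here. The members and lists were chosen with earlier results of these data known. Levels by array number and by partner RNA were examined after the data were seen. The fit was tested on simulated data. Arrays are the replicates, and p-values measure the spread between them. Residuals of arrays of 1 number were correlated, with and without a shared RNA, so p-values may be too small. Sequences are from RefSeq (GRCr8).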

Additional observations from a re-analysis of the deposited data

Results flagged for a closer look

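The effect of hypophysectomy differed between males and females at 7 Akr1 probes by the test of the difference itself (male minus female, log2). The differences were 3.88 for Akr1b8, 0.39 for Akr1cl1, -2.78 for Akr1c18, and -0.56 and -0.49 for the brighter and the second Akr1d1 probe. The fit also gave 5.73 for Akr1b7 and 1.29 for Akr1b10 (4.08 and 4.21 with processed signals). Neither probe was well above background in the male comparison, so these are no measured sizes. Beside the fall in females, they also hold the ratios of the intact and of the hypox sexes. The partner on the array moves the size for Akr1b7 and Akr1b8, and the dim channels of Akr1b10 also read higher beside intact females. The -0.56 of Akr1d1 lost its call under 4 of 20 alternatives. These were the arrays of the 4 comparisons alone (adjusted p = 0.0512), median centring, and leaving out array 2 of the female comparison or of the hypox sexes (-0.49 each). The -0.49 of the second probe lost its call under 11 of 19 alternatives. They were median centring, 4 others of processing (adjusted p from 0.0562 to 0.119) and 6 that leave out an array (-0.57 to -0.36). The response to 2 injections differed from that to 1 by -0.57 for Akr1cl1. Groups of 2 arrays were too small for a test of single outlying arrays.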

How the results depend on the processing

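Of the values of single Akr1 probes under all alternatives, 1249 kept their side of the threshold and, where called, their direction. A further 120 lost the call, 8 gained it and 2 called values reversed. Values that were not called could change sign and still count among the 1249, as Akr1a1 did between the intact sexes (0.19, lowest -0.05). The 2 reversals of called values were under median centring in place of loess, Akr1c12 between the intact sexes (-0.05) and Akr1cl1 in hypox males (0.06). That setting lowered the called Akr1 probes to 3 (intact sexes), 0 (hypox males), 3 (hypox females), 0 (hypox sexes), 0 (1 injection), 0 (2 injections), 3 (sex dependence) and 0 (2 against 1 injection), and the calls over all probes to 261, 345, 370, 7, 0, 75, 165 and 0. For 1 and for 2 against 1 injection the main counts were 3764 and 2580. Akr1c18 between the hypox sexes was the 1 call there, and 0 remained with the deposited processed signals, the value table, the arrays of that comparison alone and the replicate block. Using only a comparison's own arrays gave 4 for 1 injection, 4 for the sex dependence and 0 for 2 against 1 injection, and no dye coefficient gave 0 for the last. Leaving out 1 array gave 5 to 6, 6 to 7, 7 to 8, 0 to 0, 2 to 2, 2 to 3, 5 to 8 and 1 to 1 in the order above, where the lone array was assumed to vary like the others, and over all probes 1292 to 1448, 5648 to 8953, 3582 to 4157, 22 to 46, 558 to 629, 4183 to 4870, 1921 to 3867 and 461 to 955. Fewer arrays shared the estimate there. The cause of the other changes was not tested. Residuals of same-numbered arrays correlated by -0.67 to 0.84 over 15 pairs of comparisons, with 6 over 0.1 and most of the others negative. Where hypox males were shared, the values were 0.84 and 0.69 with them on the same side of both ratios and -0.67 to -0.32 on opposite sides. Pairs that share another RNA gave -0.46, 0.39 and 0.03. Pairs that share no RNA ran from -0.53 to 0.41, so a shared RNA does not account for all of this. Arrays of the same number were thus not independent, a single block coefficient does not take this up, and p-values may be too small. The replicate block moved no other count by over 1.5 times. The slide as a random block had a correlation of 0.014. With processed signals, Sult2a1 was the nearest gene to Akr1b7 in place of Cyp2c12, Elovl6 was no longer among the 5, and the genes named for Akr1b8 were shared.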
